A study of Mus musculus with 6 samples.

Results

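The fatty acid binding proteins are small carriers of the cytoplasm that hold long-chain fatty acids and related lipids in a closed barrel and move them between membranes, enzymes and nuclear receptors. Each is named after the tissue in which it is abundant: Fabp1 is the liver form, Fabp2 the intestinal, Fabp3 the heart, Fabp4 the adipocyte, Fabp5 the epidermal and Fabp7 the brain form. In liver, Fabp1 is an abundant cytoplasmic protein of hepatocytes, Fabp4 is known from fat cells, macrophages and the endothelium of capillaries, and Fabp7 is also known from Kupffer cells, the resident macrophages of the liver. All 6 genes named here, of 19349 gene rows in the count tables, were followed through the cell classes of the liver and compared between vehicle-treated and ginkgetin-treated mice. They were chosen by symbol, and 7 rows had a symbol that starts with Fabp. The remaining one, Fabp3-ps1, is annotated as a processed pseudogene and was not counted as a member.

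Liver non-parenchymal cells, the cells left after most hepatocytes are removed, were sequenced by 10x Genomics droplet single-cell RNA sequencing in 6 libraries. All mice were male C57BL/6J, aged 8 weeks at the start, and were fed a high-fat diet for 24 weeks as a model of nonalcoholic steatohepatitis (NASH), so that the vehicle group carries the disease as well. In the last 8 weeks they received vehicle (DMSO; 3 libraries) or ginkgetin, a biflavone of Ginkgo, at 10 mg/kg per day by the intragastric route (3 libraries). The labels do not say how many mice a library holds. Their description and the study's methods name 10x, whereas their extraction text names a total RNA kit and a SMARTER library kit, a conflict that the sources used here do not settle. No mice on a normal diet were among the single-cell samples analysed here.

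The libraries held 13128697 to 61796882 unique molecular identifiers (UMIs, counts of captured mRNA molecules), and 27544 of 33168 barcodes passed the filter of 250 to 5000 detected genes and under 5% mitochondrial UMIs. Replicate 3 of both groups stood apart. Its libraries shared 0 or 1 cell barcodes with any library of replicates 1 and 2 and 10 with each other, whereas those of replicates 1 and 2 shared 23 to 85, and 2253 gene rows had counts in replicate 3 alone and 946 in replicates 1 and 2 alone. All 6 members had counts in both sets. Since the libraries of replicates 1 and 2 and those of replicate 3 differ in this way in both groups, the ratio of the group means within each set is given for the main changes in Fabp4, Fabp5 and Fabp7.

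Cells were clustered without the 6 member genes, and the clusters were named from marker genes. This gave 6994 endothelial-like cells, 6588 macrophage-like cells (2347 of them Kupffer-like) and 159 hepatocyte-like cells, beside lymphoid, dendritic, plasma, cholangiocyte-like and stellate-like cells. Endothelial-like clusters detected 8 to 10 of 10 endothelial markers. The hepatocyte-like cluster detected 8 of 10 hepatocyte markers but came from vehicle replicates 1 and 2 (43 and 105 cells) and ginkgetin replicate 2 (11 cells) only. A replicate 3 cluster of 399 cells detected all 10 hepatocyte markers but stayed unnamed because of its low UMI counts. Both are described together as the hepatocyte-marker clusters (558 cells), a grouping made after the data were seen, and ginkgetin replicate 1 had none of these cells. Without the 5% highest doublet scores of each library, the 43, 105 and 226 hepatocyte-marker cells of the vehicle libraries became 3, 82 and 216, so the values of vehicle replicate 1 below rest almost wholly on cells with high doublet scores. The macrophage-like class also held monocytes. Sub-clusters of 1326, 660 and 155 of its cells were monocyte-derived-like by Ccr2 and F13a1 with 1 to 4 further markers, and 1 cluster of 1696 cells, led by Plac8, Tppp3 and Chil3, detected 3 of 10 macrophage markers (Cd68, Csf1r and Lyz2). All cells of the class outside the Kupffer-like sub-clusters are called other macrophage-like cells here. The Kupffer-like cells of ginkgetin replicates 1 and 2 were nearly all in sub-cluster 7 (88 of 91 and 191 of 206), which detected 7 of 8 Kupffer markers but had the endothelial markers Ptprb and Dnase1l3 beside Cd163 among its 10 leading genes. Likewise, 1007 unnamed cells of 2 clusters with Vwf and Ednrb among their leading genes detected 4 and 5 endothelial markers and are called the Vwf-led clusters.

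The members lie on 4 chromosomes (GRCm38, GENCODE M21). Fabp5 (chr3:10012548-10016607, plus strand) and Fabp4 (chr3:10204088-10208576, minus strand) are neighbours of the same chromosome arm, 187480 bp apart, with the relatives Pmp2 and Fabp9 annotated between them. Fabp2 is on the same chromosome (chr3:122895072-122899506, plus strand), whereas Fabp3 (chr4:130308595-130315463), Fabp1 (chr6:71199827-71205023) and Fabp7 (chr10:57784881-57788450) are single genes on the plus strand. Promoter sequences (250 bases before to 50 after the RefSeq start, GRCm38.p6) were at hand for 4 of the 6 members. Those of Fabp1 and Fabp7 are shown because their mRNA was concentrated in cells carrying hepatocyte markers and in Kupffer-like cells, and because they held a motif searched for. Capitals mark a TATA box (TATAAA) and nuclear receptor half-sites (AGGTCA), searched on both strands together with the AP-1 letters TGANTCA.
Fabp1, chr6:71199629-71199928, plus strand: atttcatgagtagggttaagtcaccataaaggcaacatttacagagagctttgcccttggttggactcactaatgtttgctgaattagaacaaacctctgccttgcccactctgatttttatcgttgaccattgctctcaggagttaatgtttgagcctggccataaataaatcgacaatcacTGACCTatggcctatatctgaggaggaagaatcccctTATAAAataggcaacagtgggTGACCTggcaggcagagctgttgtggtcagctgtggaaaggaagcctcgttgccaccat
Fabp7, chr10:57784673-57784972, plus strand: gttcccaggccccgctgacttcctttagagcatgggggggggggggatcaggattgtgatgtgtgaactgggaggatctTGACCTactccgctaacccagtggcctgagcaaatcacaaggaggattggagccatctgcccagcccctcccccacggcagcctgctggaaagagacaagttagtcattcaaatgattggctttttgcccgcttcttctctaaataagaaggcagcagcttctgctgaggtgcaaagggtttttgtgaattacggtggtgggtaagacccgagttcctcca
The Fabp1 window held a TATA box at base 221 and half-sites, both on the minus strand, at bases 184 and 242, and the Fabp7 window held 1 half-site, also on the minus strand, at base 80. A TATA box was present in 13.6% of all 32851 promoter windows and a half-site in 16.3%. Neither window held the AP-1 letters, which 7.81% of windows did. The windows of Fabp2 and Fabp3 held none of the 3 motifs.

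Each member had its own pattern over the cell classes, given as CPM, the UMIs of a gene per 1000000 UMIs summed over a library and class. These levels are a description with no test, as are the orders drawn from them. The plot of levels by class shows Fabp1 and Fabp2 highest in the hepatocyte-marker clusters, Fabp4 and Fabp5 highest in the endothelial classes, and Fabp7 highest in Kupffer-like cells.

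**Figure D1:**
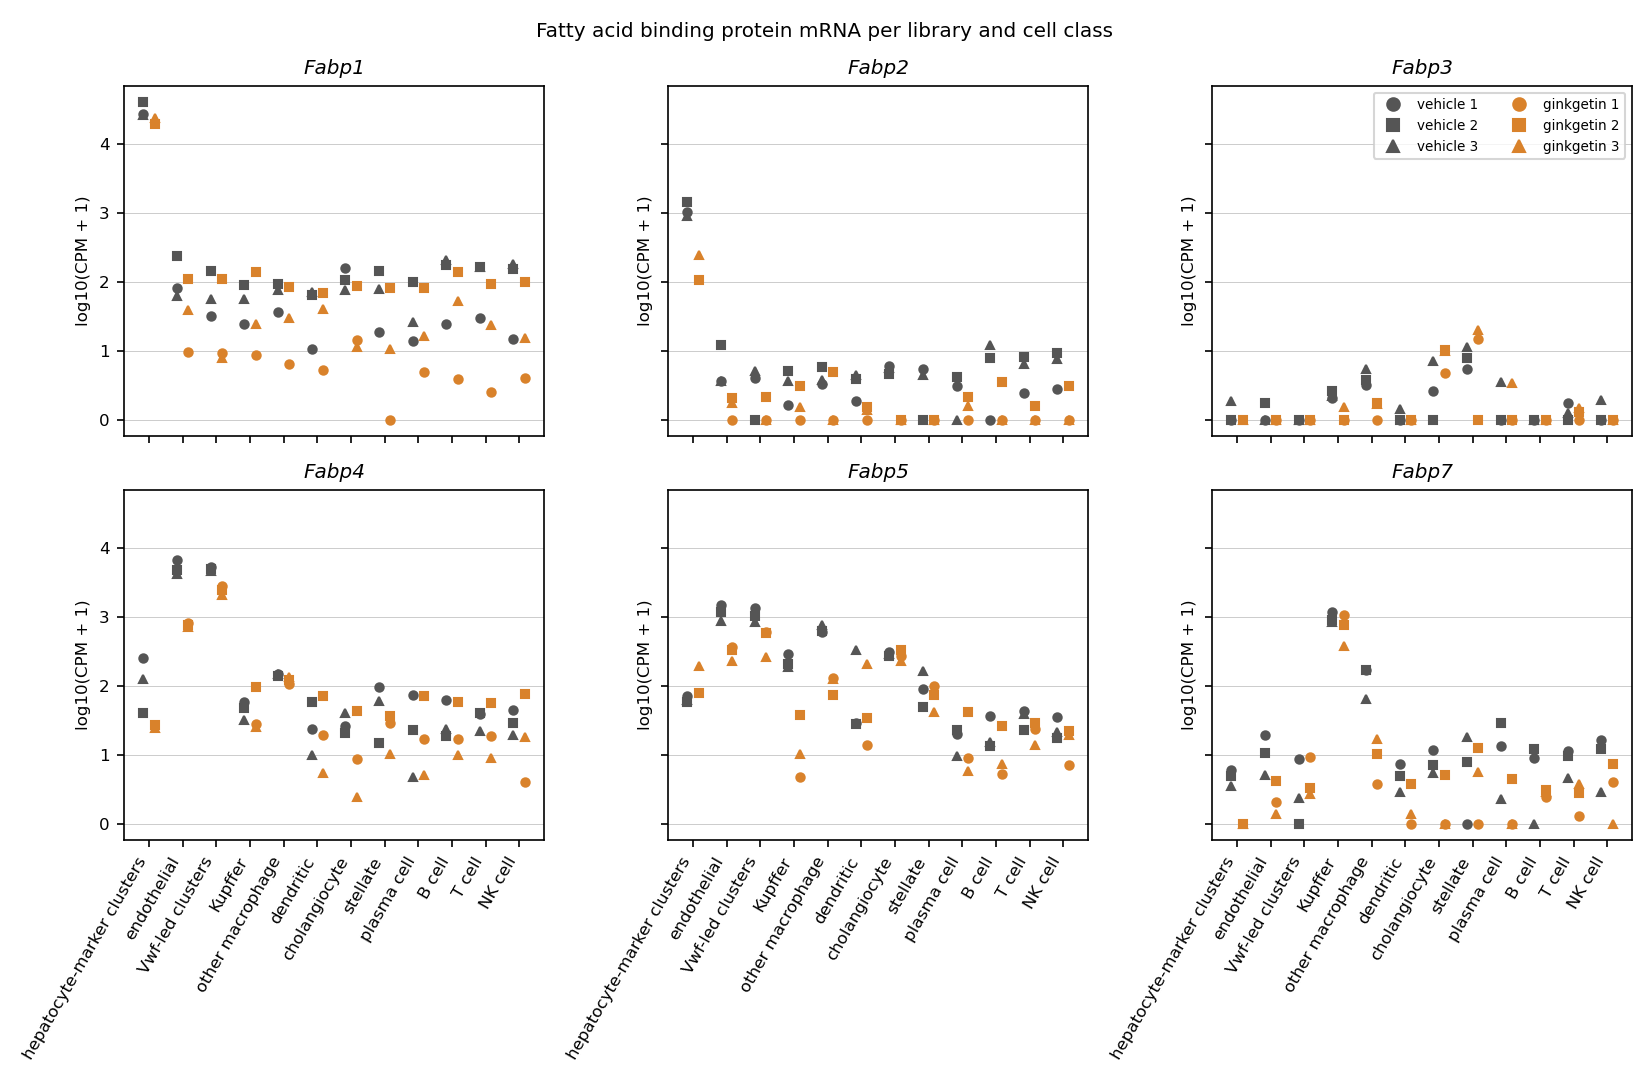
Level of each member, as log10(CPM + 1), in 12 cell classes, with 1 point per library (grey vehicle, orange ginkgetin, marker shape for the replicate number). Fabp4 in endothelial-like cells lies between 4245 and 6647 CPM in the vehicle libraries and between 712 and 825 CPM in the ginkgetin libraries.

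In vehicle-treated mice, Fabp4 was at 5233 ± 1256 CPM (SD, n = 3) in endothelial-like cells and 4979 ± 348 CPM in the Vwf-led clusters, which did not differ beyond their spread. Other macrophage-like cells (those outside the Kupffer-like sub-clusters) followed at 144 ± 5.5 CPM, with Kupffer-like cells at 45.2 ± 12.9 CPM and T cells at 33.2 ± 10.1 CPM. Within each of the 6 libraries, Kupffer-like cells had 1.30 to 2.36 times the Fabp4 of lymphoid cells (B, T and NK cells together). Fabp5 was at 1171 ± 302 CPM in endothelial-like cells and 1077 ± 249 CPM in the Vwf-led clusters, then at 662 ± 82.4 CPM in other macrophage-like, 289 ± 16.7 CPM in cholangiocyte-like and 230 ± 54.6 CPM in Kupffer-like cells. The ranges of the last 2 classes overlapped, although cholangiocyte-like cells were the higher in each of the 3 libraries. T cells had 34.1 ± 10.5 CPM of Fabp5. Fabp7 was at 975 ± 173 CPM in Kupffer-like cells, 133 ± 60.9 CPM in other macrophage-like cells and 7.6 ± 3.5 CPM in T cells.

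Over 63 sums of a library and class, the genes whose levels ranked most like Fabp1 were Mup20, Apoc3 and Apoa2 (Spearman 0.93, 0.92 and 0.92), which encode a major urinary protein and 2 apolipoproteins made by hepatocytes. Fabp7 was most like Folr2, C1qc and C1qb (0.87, 0.81 and 0.80), a folate receptor of resident macrophages and 2 chains of complement C1q. Fabp5 was most like Anxa5, Dhrs3 and Tax1bp3 (0.79, 0.78 and 0.78), and Fabp4 most like the noncoding RNA Bvht, the scavenger receptor gene Msr1 and Bax (0.66, 0.62 and 0.62). These correlations were taken over 8881 genes, and the sums share libraries, depth and free RNA.

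Fabp4, the adipocyte form, fell in endothelial-like cells of ginkgetin-treated mice. It was at 6647, 4808 and 4245 CPM in the vehicle libraries (replicates 1, 2 and 3, an order kept below) and at 825, 773 and 712 CPM in those of ginkgetin. Every ginkgetin library was below every vehicle library. The log2 fold change was -2.95 (SE 0.38), 7.7-fold lower, with an adjusted p of 0.0403 in edgeR's quasi-likelihood test (Benjamini-Hochberg over 10132 genes). Fabp4 was the only called member of the 4 tested in endothelial-like cells, and 0.72% of all genes tested there were called at an adjusted p under 0.05 and a fold over 2.

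The change was of similar size in both library sets, with a log2 ratio of the means of -2.84 in replicates 1 and 2 and of -2.58 in replicate 3. Endothelial-like cells of the groups fell into different clusters in replicates 1 and 2, one led by Lyve1, Inhbb and Cd36 that held the vehicle cells and another led by Pde2a, Ehd3 and Kdr that held the ginkgetin cells, whereas those of replicate 3 shared 1 cluster. Sub-clustering parted replicate 3 by group too, with 13 vehicle and 985 ginkgetin cells in one sub-cluster and 317 and 29 in another. One sub-cluster held mainly vehicle cells of replicates 1 and 2 (1091 and 476 vehicle and 11 and 3 ginkgetin cells) and had the heat shock genes Hspa1b and Hspa1a and the macrophage genes C1qb and Lyz2 among its leading genes, and the part of these in the Fabp4 change was not tested. Leaving out any 1 of the 6 libraries ended the call (adjusted p from 0.0574 to 0.265), as did testing without a filter on low genes (0.0672), with leave-one-out log2 fold changes from -3.16 to -2.67. With the replicate number as a block the adjusted p was 0.000161, and all 4 tested members were called lower, where 4.57% of genes were called.

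The share of endothelial-like cells with a Fabp4 UMI, after each cell was thinned to 1000 UMIs, was 92.2 ± 2.52% in the vehicle and 33.6 ± 2.90% in the ginkgetin libraries (SD, n = 3). The groups did not overlap, and the two-sided exact permutation test gave p = 0.10, the smallest that 3 against 3 allows (0.49 adjusted over 78 comparisons). Without thinning the shares were 98.9% and 56.0%. In T cells, which served as the background from free RNA, the thinned shares were 2.85 ± 0.27% and 2.86 ± 2.09%. Endothelial-like cells had median depths of 2243 to 7577 UMIs and T cells of 2625 to 6384 UMIs per library.

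In the Vwf-led clusters Fabp4 was also lower with ginkgetin, but less so. It was at 5329, 4975 and 4633 CPM in the vehicle and at 2782, 2426 and 2043 CPM in the ginkgetin libraries, which did not overlap, with log2 ratios of the means of -0.98 in replicates 1 and 2 and -1.18 in replicate 3. The log2 fold change of -1.05 (SE 0.39) was not called by edgeR (adjusted p 0.953, where 0 of 7329 genes were called and 363 had an unadjusted p under 0.05). With the replicate block it was called, at an adjusted p of 0.0141, and 2 of 3 tested members were, beside 0.532% of genes. The test of the difference between the Vwf-led and the endothelial-like cells, fitted with the library as a block, gave 1.83 (SE 0.14) on the log2 scale and an adjusted p of 3.0e-09, where 2.1% of genes differed. That difference passed without any 1 of the replicate numbers (highest adjusted p 2.78e-05).

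In macrophage-like cells Fabp4 was not called. It was at 112, 108 and 112 CPM in the vehicle and at 86.3, 113 and 72.2 CPM in the ginkgetin libraries, with a log2 fold change of -0.58 (SE 0.27, adjusted p 0.235, edgeR). The groups overlapped. It was -1.75 in cells of 250 to 5000 UMIs and -1.14 without the 5% highest doublet scores, also not called (adjusted p 0.104 and 0.0910). In other macrophage-like cells alone the groups did not overlap (138 to 148 CPM against 107 to 132 CPM), at a log2 fold change of -0.43 (SE 0.17, adjusted p 0.221). Within the monocyte-derived-like sub-clusters that both groups shared, the direction was the opposite, with 53.9, 43.3 and 66.5 CPM in the vehicle and 125, 158 and 88.1 CPM in the ginkgetin libraries (1.09, SE 0.34, adjusted p 0.558). The effect on Fabp4 differed between macrophage-like and endothelial-like cells by 2.29 (SE 0.31) on the log2 scale, with an adjusted p of 0.00332 in edgeR's interaction test, where 6.54% of 11485 genes differed. Without replicate number 1 the adjusted p was 0.0551.

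Endothelial marker RNA in macrophage-like cells also differed between the groups. The 10 endothelial markers summed to 165 to 174 CPM in the vehicle and 542 to 1293 CPM in the ginkgetin macrophage-like cells, and in endothelial-like cells to 9691, 11234 and 14531 CPM in the vehicle and 14856, 15606 and 20296 CPM in the ginkgetin libraries. No endothelial marker was at 0 in macrophage-like cells of any library. In other macrophage-like cells, Fabp4 stood at 144 to 223 UMIs per 100 endothelial marker UMIs in the vehicle libraries against 29.2 to 68.6 in endothelial-like cells of the same libraries, and at 11.6 to 75.0 against 3.51 to 5.55 in the ginkgetin libraries. In Kupffer-like cells the same ratio was below that of endothelial-like cells in all 6 libraries (8.0 to 18.9 and 2.0 to 4.78). The part of endothelial RNA in macrophage Fabp4 was not tested.

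Fabp5, the epidermal form, fell in macrophage-like cells. It was at 484, 486 and 583 CPM in the vehicle libraries and at 97.4, 63.8 and 60.5 CPM in the ginkgetin libraries, without overlap. This was a log2 fold change of -3.08 (SE 0.35) with an adjusted p of 0.0298 (edgeR). Fabp5 was the only called member of the 6 tested in this class, where 4.2% of 10834 genes were called. Every leave-one-out fit ended the call (adjusted p from 0.0520 to 0.205), while the log2 fold change stayed between -3.49 and -2.82. The log2 ratio of the means was -2.59 in replicates 1 and 2 and -3.27 in replicate 3. In cells of 250 to 5000 UMIs it was -3.53 with an adjusted p of 0.0568. With the replicate block 4 of the 6 were called lower (Fabp1, Fabp3, Fabp5 and Fabp7), where 9.87% of genes were called.

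In Kupffer-like cells Fabp5 was at 292, 207 and 190 CPM in the vehicle libraries and at 3.9, 37.6 and 9.2 CPM in the ginkgetin libraries (log2 ratios of -3.59 in replicates 1 and 2 and -4.37 in replicate 3). This gave a log2 fold change of -4.25 (SE 0.66) with an adjusted p of 0.0139 (edgeR), and Fabp5 was again the only called member, of 4 tested, where 10.5% of genes were called. The ginkgetin values were 0.21 to 1.42 times those of lymphoid cells of the same library (B, T and NK cells together), against 6.23 to 10.8 times in the vehicle libraries. Under ginkgetin the Fabp5 of Kupffer-like cells was thus below or little above that of lymphoid cells. The part of free RNA in either was not tested. The call was lost when replicate 1 or 2 of the vehicle group or replicate 2 of the ginkgetin group was left out (adjusted p 0.0990, 0.101 and 0.0621), and in cells of 250 to 5000 UMIs (0.0813). The groups were held by different Kupffer-like sub-clusters (1 and 6 in the vehicle, 5 and 7 in the ginkgetin group). Those of the vehicle group detected Clec4f, Vsig4, Cd5l and Folr2, 4 of 8 Kupffer markers, and those of the ginkgetin group 7 of 8, with Timd4, Marco, C6 and Cd163 but without Folr2. Detection here is relative to the other macrophage-like cells, and none of the 8 markers was at 0 in the Kupffer-like cells of any library. Without sub-cluster 7, an alternative added after the data were seen, 15 and 530 cells of ginkgetin replicates 2 and 3 were left to test. Fabp5 then had a log2 fold change of -5.39 and was not called (adjusted p 0.1003). There edgeR called 0 of 9879 genes, 1337 of them with an unadjusted p under 0.05. A gate of 2 or more of Clec4f, Vsig4, Cd5l and C6 in place of the sub-clusters gave -3.91 (adjusted p 0.0119), where 8.93% of genes were called.

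Other macrophage-like cells had 607, 622 and 756 CPM of Fabp5 in the vehicle and 131, 73.5 and 125 CPM in the ginkgetin libraries (log2 ratios of -2.59 and -2.60 in the sets). Fabp5 thus fell by 2.75 on the log2 scale in the class as a whole (SE 0.30, adjusted p 0.0274, edgeR). In this class 2 of 5 tested members were called, Fabp5 and Fabp7, where 1.85% of genes were, and with the replicate block Fabp1 as well, where 8.55% were. The Fabp5 effect differed between Kupffer-like and other macrophage-like cells by -1.62 on the log2 scale, which did not pass (adjusted p 0.0514, where 10.4% of 10388 genes did). Without replicate number 2 it was -2.69 and passed (adjusted p 0.00129), and without number 1 or 3 it was -1.09 and -1.0. Leaving out any 1 library ended the call in other macrophage-like cells (adjusted p from 0.0506 to 0.216).

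The make-up of other macrophage-like cells also differed between the groups. The sub-clusters led by Gpnmb and Trem2 in replicates 1 and 2, and by H2-M2 and Spp1 in replicate 3, held 525, 330 and 775 of the vehicle and 16, 57 and 39 of the ginkgetin cells, and 1 monocyte-derived-like sub-cluster held ginkgetin cells only (20 and 135 in replicates 1 and 2). In the monocyte-derived-like sub-clusters that both groups shared (799, 427 and 533 vehicle and 73, 27 and 127 ginkgetin cells), Fabp5 was at 358, 266 and 157 CPM in the vehicle and at 184, 136 and 57.2 CPM in the ginkgetin libraries. These groups overlapped, and the log2 fold change of -1.10 (SE 0.58) was not called (adjusted p 0.661, where edgeR called 0 of 8164 genes and 671 had an unadjusted p under 0.05). Fabp7 was too low to test in these cells, at 10.1, 10.5 and 3.9 CPM against 0, 0 and 1.8 CPM. The part of this make-up in the changes of Fabp5 and Fabp7 over the class was not tested beyond these values.

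In endothelial-like cells Fabp5 was at 1479, 1160 and 875 CPM in the vehicle and at 363, 333 and 232 CPM in the ginkgetin libraries. The ginkgetin libraries were all below the vehicle libraries, but the log2 fold change of -2.09 (SE 0.40) was not called (adjusted p 0.0885, edgeR). With the replicate block it was called, at an adjusted p of 0.000163, and within replicates 1 and 2 it was as well, at 0.00133. The ratio of the means was -1.92 on the log2 scale within both sets. The share of thinned cells with a Fabp5 UMI was 57.0 ± 5.94% against 24.02 ± 3.65%, beside 2.88 ± 0.48% and 1.98 ± 0.57% in T cells.

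Macrophage RNA in endothelial-like cells moved in the same direction, with the 10 macrophage markers at 311 to 634 CPM in the vehicle and 103 to 267 CPM in the ginkgetin libraries, and none of them at 0. Per 100 UMIs of these markers, endothelial-like cells held 125 to 352 UMIs of Fabp5 and macrophage-like cells 0.24 to 1.72. In the Vwf-led clusters Fabp5 was at 1346, 1031 and 854 CPM against 597, 574 and 261 CPM, with a log2 fold change of -1.17 (SE 0.47, adjusted p 0.975; 0.0268 with the replicate block). The difference from endothelial-like cells was 0.81 (SE 0.16, adjusted p 0.00402), and it was lost without replicate number 1 or 2 (adjusted p 0.203 and 0.207).

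**Figure D2:**
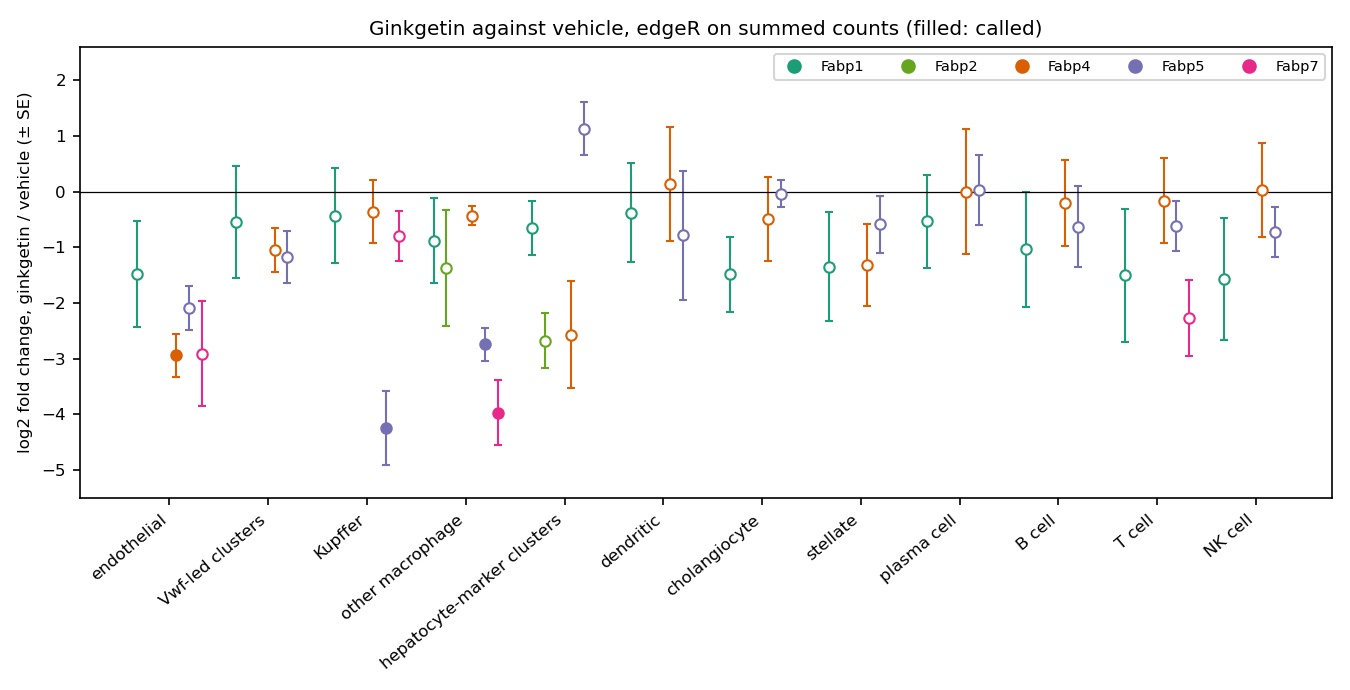
Log2 fold change of each tested member, ginkgetin against vehicle, with its standard error (bars), in 12 cell classes. Filled points are the called ones, which are Fabp4 in endothelial-like cells, Fabp5 in Kupffer-like and other macrophage-like cells, and Fabp7 in other macrophage-like cells.

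Outside the endothelial and macrophage classes Fabp5 had no called change. Cholangiocyte-like cells, which line the bile ducts, kept 304, 271 and 291 CPM in the vehicle and 269, 330 and 229 CPM in the ginkgetin libraries, with a log2 fold change of -0.04 (SE 0.24, adjusted p 0.966, where 0.176% of genes were called). In dendritic-like cells Fabp5 separated the library sets and not the groups. It was at 331 and 208 CPM in replicate 3 of the vehicle and ginkgetin groups, and at 13 to 33.3 CPM in the other 4 libraries, whose dendritic-like cells came from other clusters. B, T, NK, dendritic-like, plasma and stellate-like cells had no called gene at all, with an unadjusted p under 0.05 for 668 of 6675 genes in NK cells and 960 of 7090 in B cells, for example.

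Macrophage-like cells were also split by whether they held a UMI of Trem2 or Gpnmb, which encode a lipid receptor and a glycoprotein of lipid-associated macrophages, after thinning to 1000 UMIs. The share of cells with such a UMI was 38.0%, 42.0% and 49.3% in the vehicle and 6.19%, 7.93% and 3.75% in the ginkgetin libraries. Among the cells with such a UMI, Fabp5 was at 712, 707 and 791 CPM in the vehicle libraries. In the ginkgetin libraries these cells numbered 14, 38 and 24 and held 9, 1 and 1 Fabp5 UMIs, so that their levels (643, 26.3 and 41.7 CPM) are too imprecise to compare.

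Among the cells without such a UMI, Fabp5 was at 226, 171 and 171 CPM in the vehicle and at 18.9, 65.8 and 19.5 CPM in the ginkgetin libraries, without overlap. The two-sided exact permutation test gave p = 0.10, the smallest that 3 against 3 allows. Kupffer-like cells made up 383 of 1385, 233 of 721 and 218 of 864 of these cells in the vehicle libraries. In the ginkgetin libraries they made up 88 of 212, 194 of 441 and 463 of 616. Fabp5 in these Kupffer-like cells was at 159, 81.5 and 41.3 CPM against 0, 41.2 and 6.5 CPM. In other macrophage-like cells without such a UMI it was at 251, 213 and 215 CPM against 32.3, 85.0 and 58.8 CPM. The vehicle cells with a Trem2 or Gpnmb UMI had higher Fabp5 than those without in all 3 libraries. A cell without a UMI at this depth may still express these genes.

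**Figure D3:**
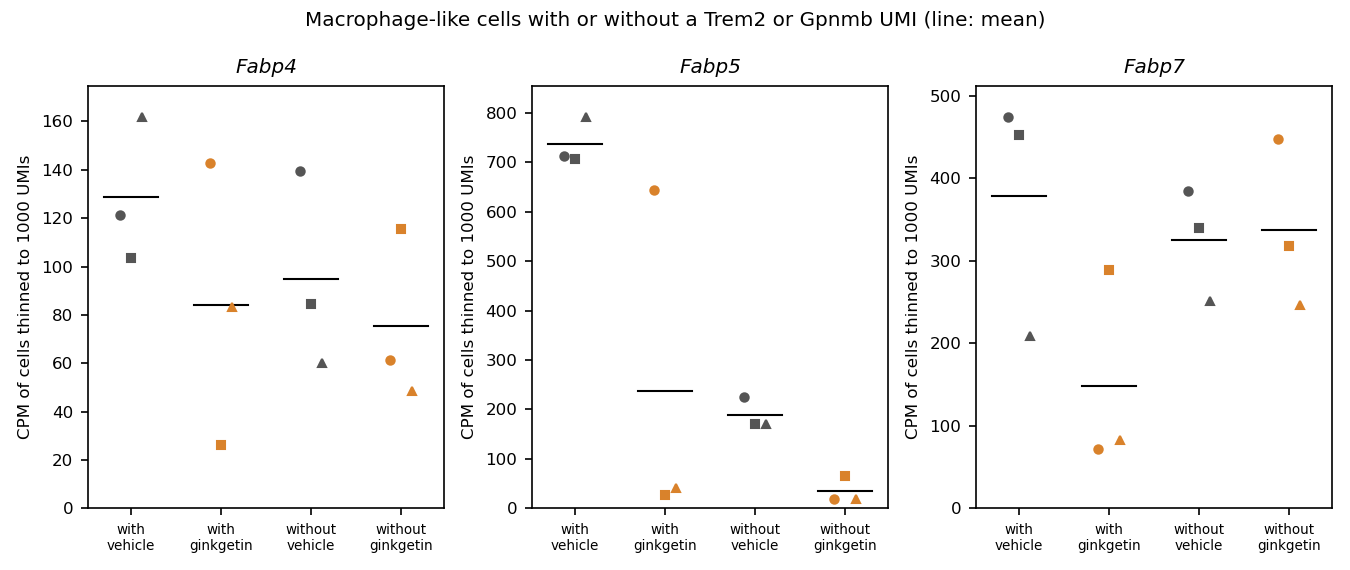
Fabp4, Fabp5 and Fabp7 in macrophage-like cells with or without a Trem2 or Gpnmb UMI, in CPM of cells thinned to 1000 UMIs, with 1 point per library (circle, square and triangle for replicates 1, 2 and 3) and a line at the mean. Fabp5 of the vehicle libraries lies at 707 to 791 CPM with such a UMI and at 171 to 226 CPM without.

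Fabp7, the brain form, was highest in Kupffer-like cells in both groups. It was at 1170, 909 and 845 CPM in the vehicle libraries and at 1071, 762 and 381 CPM in the ginkgetin libraries. The groups overlapped, with a log2 ratio of the means of -0.18 in replicates 1 and 2 and of -1.15 in replicate 3, and the log2 fold change of -0.80 (SE 0.45) was not called (adjusted p 0.265, edgeR). With the replicate block the adjusted p was 0.00564, at a fold under 2 (-0.95 on the log2 scale), so that Fabp5 was still the 1 called member of 4, where 16.9% of genes were called. Without sub-cluster 7 the ginkgetin values were 668 and 381 CPM in replicates 2 and 3, below all vehicle values, and the log2 fold change was -1.60 (SE 0.46, adjusted p 0.255). The thinned shares of Kupffer-like cells with a Fabp7 UMI were 52.3 ± 5.44% and 39.8 ± 14.4%. Without thinning, which left out 1 vehicle and 58 ginkgetin cells, they were 90.9% and 61.3%.

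In other macrophage-like cells Fabp7 fell from 168, 169 and 62.9 CPM in the vehicle libraries to 2.7, 9.3 and 16.3 CPM in the ginkgetin libraries. The log2 fold change was -3.97 (SE 0.59) with an adjusted p of 0.0402 (edgeR), and it was lost without any 1 library except vehicle replicate 3 (adjusted p 0.0756 to 0.263, and 0.0492 without vehicle replicate 3). Within the sets the log2 ratio of the means was -4.81 in replicates 1 and 2 and -1.95 in replicate 3. The effect differed between Kupffer-like and other macrophage-like cells by 2.57 (SE 0.48) on the log2 scale with an adjusted p of 0.00261, which held without any 1 replicate number (differences from 1.95 to 3.93, highest adjusted p 0.0194).

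Kupffer cell markers moved with Fabp7 in other macrophage-like cells. The 8 markers (Clec4f, Vsig4, Timd4, Marco, Cd5l, Folr2, C6 and Cd163) summed to 1062, 942 and 950 CPM in the vehicle libraries and to 144, 244 and 146 CPM in the ginkgetin libraries. Per 100 of their UMIs there were 15.8, 17.9 and 6.62 UMIs of Fabp7 in the vehicle and 1.90, 3.8 and 11.1 in the ginkgetin libraries, where Kupffer-like cells had 5.75 to 10.6 and 2.12 to 8.03. The part of Kupffer cell RNA in this change was not tested. Over all macrophage-like cells the log2 fold change of Fabp7 was -1.14 (SE 0.36, adjusted p 0.110; 0.00758 with the replicate block), and it was 0.30 in cells of 250 to 5000 UMIs (adjusted p 0.753).

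Endothelial-like cells held little Fabp7, at 18.6, 9.8 and 4.1 CPM in the vehicle and 1.1, 3.3 and 0.39 CPM in the ginkgetin libraries. This was 0.20 to 1.70 times that of lymphoid cells in the 5 libraries where lymphoid cells had over 3 Fabp7 UMIs. In the vehicle libraries it was 1.70, 1.02 and 1.52 times. The part of free RNA in these values was not tested. The log2 fold change was -2.91 (adjusted p 0.235; 0.00869 with the replicate block; -4.25 to -2.18 without 1 library), beside the lower macrophage marker sums given above.

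Fabp3, the heart form, was rare. Macrophage-like cells held 34, 23 and 84 UMIs of it in the vehicle and 0, 1 and 2 in the ginkgetin libraries, or 1.8, 2.4 and 3.5 CPM against 0, 0.56 and 0.60 CPM. The log2 fold change of -2.79 (SE 0.60) missed the threshold (adjusted p 0.0506) and passed with the replicate block (0.0178). Stellate-like cells reached 4.4 to 19.05 CPM in 5 libraries from 12 or fewer UMIs each. Of this class, 180 cells detected the stellate markers Lrat, Reln and Colec11, whereas 104 cells led by Gsn, Igfbp6 and Dpt detected Dcn, Col1a1 and Col3a1 without these. Cholangiocyte-like cells held 0 to 9.4 CPM of Fabp3. Endothelial-like cells held 1 Fabp3 UMI in all 6 libraries together.

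Fabp1, the liver form, was concentrated in the cells with hepatocyte markers. In the hepatocyte-marker clusters it was at 27277, 40242 and 25940 CPM in the 3 vehicle libraries and at 19362 and 23683 CPM in ginkgetin replicates 2 and 3. The ginkgetin values lay below the vehicle values, and the log2 fold change of -0.66 (SE 0.48) was not called (adjusted p 0.560). edgeR called 0 of 3964 genes there, with 523 at an unadjusted p under 0.05, and DESeq2 called 66. The hepatocyte-like class itself had 1 ginkgetin library and was not tested. These 558 cells, 2.03% of those kept, carried 87.1% of the Fabp1 UMIs of all kept cells, with 80.7%, 91.1% and 89.9% in the vehicle and 0%, 24.4% and 92.5% in the ginkgetin libraries. Of all deposited Fabp1 UMIs, 49.0% were in barcodes that the filter left out (6.52% to 64.4% per library).

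Fabp1 in the other classes followed the library more than the class. In lymphoid cells (B, T and NK cells) it was at 25.5, 166 and 174 CPM in the vehicle libraries and at 1.9, 110 and 27.0 CPM in the ginkgetin libraries. Endothelial-like cells had 81.2, 237 and 61.6 CPM and 8.5, 110 and 38.4 CPM, and macrophage-like cells 30.7, 90.7 and 69.0 CPM and 6.1, 98.2 and 26.2 CPM. The library with no hepatocyte-marker cell, ginkgetin replicate 1, was lowest in each of these classes. Relative to lymphoid cells of the same library, Fabp1 of macrophage-like cells was 0.40 to 1.20 times as high in 5 libraries and 3.22 times in ginkgetin replicate 1, where lymphoid cells held 8 Fabp1 UMIs. For endothelial-like cells the ratio was 3.18, 1.43 and 0.35 in the vehicle and 4.51, 1.0 and 1.42 in the ginkgetin libraries.

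Spillover was then read from ratios, on the assumption, which was not tested, that RNA of 1 source keeps its genes in about 1 proportion in every class of a library. A panel of 13 hepatocyte genes (Alb, Apoa1, Apoa2, Apoc3, Ttr, Serpina1a, Serpina1c, Ahsg, Fgb, Fga, Fgg, Apoh and Ambp) was used as the measure. In the hepatocyte-marker clusters there were 28.9, 57.2 and 47.1 UMIs of Fabp1 per 100 panel UMIs in the 3 vehicle libraries and 21.6 and 58.2 in ginkgetin replicates 2 and 3. Lymphoid cells had 19.0, 31.8 and 20.2, and 21.6 and 41.8, so their ratio was lower than in hepatocytes in 4 libraries and the same in ginkgetin replicate 2. Macrophage-like cells had 30.2, 29.3 and 18.8 in the vehicle libraries and 19.4 and 30.2 in ginkgetin replicates 2 and 3.

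Endothelial-like cells had 40.8, 48.0 and 12.4 in the vehicle libraries and 19.0 and 23.4 in ginkgetin replicates 2 and 3. The endothelial value was above that of the hepatocyte-marker clusters in vehicle replicate 1 alone (40.8 against 28.9, the latter from the cells with high doublet scores), where that of macrophage-like cells was also above (30.2). In ginkgetin replicate 1, with no hepatocyte-marker cells to compare with, lymphoid, endothelial-like and macrophage-like cells had 5.84, 15.7 and 11.8. Cholangiocyte-like cells broke the proportion, with 0.10 to 0.95 Fabp1 UMIs per 100 panel UMIs, while their Alb was at 3505 to 8800 CPM and their Fabp1 at 10.3 to 157 CPM.

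**Figure D4:**
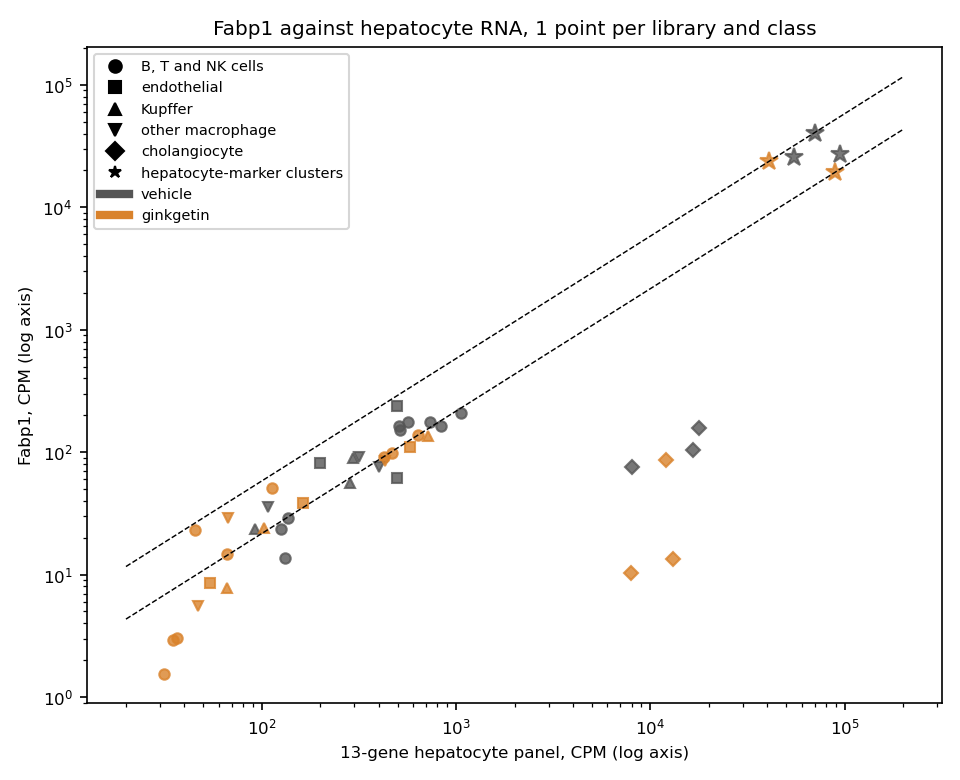
Fabp1 against the 13-gene hepatocyte panel, both in CPM on log axes, with 1 point per library and class, B, T and NK cells apart (grey vehicle, orange ginkgetin). Dashed lines mark the lowest and highest proportion of the hepatocyte-marker clusters (21.6 and 58.2 Fabp1 UMIs per 100 panel UMIs), and cholangiocyte-like cells lie far below them.

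Fabp1 and the panel genes were then compared between the groups. In endothelial-like cells the Fabp1 log2 fold change was -1.48 (SE 0.96, adjusted p 0.567; -2.80 to -0.56 without 1 library), where 10 of 12 tested panel genes were also lower and 0 were called (median -0.80 against -0.01 for all genes). In macrophage-like cells it was -0.84 (SE 0.85, adjusted p 0.590; -2.41 to -0.38 without 1 library), again with 10 of 12 panel genes lower and 0 called (median -0.60 against 0.00). With the replicate block Fabp1 was called in both (adjusted p 0.0247 and 0.0399), with 2 panel genes called lower in endothelial-like and 0 in macrophage-like cells. The thinned share of cells with a Fabp1 UMI was 8.60 ± 6.31% and 4.29 ± 4.94% in endothelial-like cells, and 11.2 ± 7.93% and 3.97 ± 5.12% in T cells. In the vehicle libraries the endothelial share was 3.85%, 15.8% and 6.19% beside 2.19%, 14.3% and 17.1% in T cells, above it in replicates 1 and 2 and below it in replicate 3.

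Fabp2, the intestinal form, followed Fabp1 into the hepatocyte-marker clusters. It was at 1041, 1420 and 892 CPM in the vehicle libraries and at 105 and 245 CPM in ginkgetin replicates 2 and 3, from 208, 718 and 1035 UMIs and from 4 and 92 UMIs. The groups did not overlap, but the log2 fold change of -2.68 (SE 0.49) was not called (adjusted p 0.227, edgeR). With the replicate block the adjusted p was 0.103, and 0 of 4 members and 0.303% of genes were called. DESeq2 and a block for the library sets each called 1 of 4 members, beside 66 and 94 of 3964 genes. The fit without vehicle replicate 3 called 1 of 4, beside 114 of 3074 genes, and those without vehicle replicate 1 or 2 called none. Without a filter on low genes 2 of 6 were called, beside 130 of 13469 genes. In the same clusters Fabp4 had a log2 fold change of -2.57 and Fabp5 of 1.13, neither called (adjusted p 0.355 and 0.383). Every other class held at most 11.4 CPM of Fabp2, and ginkgetin replicate 1 held none in any class.

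The genes around the carriers were counted from lists of lipid uptake (13 genes), activation and storage (13), lipolysis and oxidation (15) and regulators (7). For endothelial-like cells, where 0.72% of all genes were called, the last 3 lists are given and the uptake list is not reported here. There 1 of 6 tested regulators fell, Angptl4 (log2 fold change -4.67, adjusted p 0.0124, edgeR), which encodes an inhibitor of lipoprotein lipase. Of the 7 tested storage and 15 oxidation genes 0 were called. The medians of the 3 lists were -0.14, -0.25 and -1.07 against -0.01 for all genes, and with the replicate block 2 regulators and no storage or oxidation gene were called lower.

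In macrophage-like cells 5 list genes fell and none rose, where 4.2% of all genes were called. They were Pparg (-1.73, adjusted p 0.0298), the nuclear receptor that is known to drive Fabp4 in fat cells, Angptl4 (-2.90, 0.0298), the lipid droplet coat gene Plin2 (-2.27, 0.0300), the acyl-CoA dehydrogenase gene Acadl (-1.01, 0.0377) and the fatty acid receptor gene Cd36 (-1.41, 0.0423). The tested genes numbered 9, 9, 14 and 5 in the 4 lists, with medians of -0.20, -0.23, -0.37 and -0.15 against 0.00. With the replicate block 9 fell and 2 rose.

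In Kupffer-like cells Pparg (-2.33, adjusted p 0.0089), Plin2 (-1.93, 0.0103), Cd36 (-1.58, 0.0140) and Angptl4 (-2.35, 0.0188) fell, and 4 genes rose, where 10.5% of all genes were called. The tested genes numbered 9, 8, 14 and 5. The replicate block gave 6 lower and 6 higher, and without sub-cluster 7 none of them was called. Of the genes that rose, the acyl-CoA synthetase gene Acsl4 (1.27, 0.0149) and the fatty acid transporter gene Slc27a4 (1.40, 0.0200) are named by the rule, and Mgll (1.61) and Rxra (1.03) were added after their values were seen. In other macrophage-like cells the lipoprotein lipase gene Lpl (-3.49, 0.0263), Angptl4 (-3.49, 0.0402), Pparg (-1.35, 0.0402) and Plin2 (-2.37, 0.0459) fell and none rose of 9, 9, 14 and 5 tested, where 1.85% of all genes were called. The fit with the replicate block had 10 lower and 2 higher. In the shared monocyte-derived-like sub-clusters no list gene was called, where edgeR called 0 of 8164 genes. The medians of the 4 lists there were 0.38, -0.02, -0.24 and -0.09, and over other macrophage-like cells -0.09, -0.02, -0.44 and -1.34. The part of the make-up of the class in these changes was not tested.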

How the data were processed

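The deposited tables held raw UMI counts of genes in cell barcodes, which the authors had not normalized. The builds named in the submitters' processing notes are GRCm38 and mm10, and the aligner is not given in the sources used here. The study's methods state UMIs of 250 to 5000 per cell. Here that range was applied to detected genes instead, a departure, because as UMIs it kept only 16821 barcodes, and the UMI range was an alternative. Cells were clustered in scanpy 1.11.5 (2000 variable genes without the members, 30 components, Leiden resolution 1, no integration) and named from at least 3 markers. Doublets were not removed (Scrublet called 0.0286% to 0.192%). Counts were summed per library and class (10 or more cells) and tested with edgeR 4.0.16 (TMM, filterByExpr, quasi-likelihood, group only). A call needed an adjusted p (Benjamini-Hochberg) below 0.05 and a change of more than 2-fold. Differences between classes were tested with an interaction term.

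The labels do not tie libraries to single mice, so p-values and the standard errors of edgeR rest on the spread between these libraries. In summed counts, a lower level per cell and fewer expressing cells cannot be told apart. Same-numbered libraries deviated together (r 0.67, 0.63 and 0.91 in endothelial-like, 0.54, 0.59 and 0.85 in macrophage-like and 0.38, 0.41 and 0.78 in Kupffer-like cells), so the fit with the replicate number as a block is given where it changes a call. Replicates 1 and 2 also correlated across numbers (0.62 and 0.66 in endothelial-like cells). The edgeR fit was tested on simulated data. DESeq2 1.42.0 was an alternative. The members and gene lists were chosen with earlier results of these data known. The named genes are the members, the 3 genes most like Fabp1, Fabp4, Fabp5 and Fabp7, and the called list genes, up to the 6 with the lowest p per class, except some that are not reported here. Promoter sequences are from RefSeq.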

Additional observations from a re-analysis of the deposited data

Results flagged for a closer look

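For 4 results the effect of ginkgetin differed between cell classes in edgeR's interaction test, fitted with the library as a block. The comparison of macrophage-like with endothelial-like cells was planned, and the other 3 were chosen after the data were seen. Values are differences of log2 fold changes. Fabp4 differed by 2.29 between macrophage-like and endothelial-like cells (adjusted p 0.00332), where the log2 fold changes were -0.58 and -2.95. Fabp4 differed by 1.83 between the Vwf-led clusters and endothelial-like cells (adjusted p 3.0e-09), and Fabp5 by 0.81 between the same classes (adjusted p 0.00402). Fabp7 differed by 2.57 between Kupffer-like and other macrophage-like cells (adjusted p 0.00261), where the log2 fold changes were -0.80 and -3.97. No single library was tested as standing apart, since groups of 3 are too small for that test.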

How the results depend on the processing

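Alternatives were compared for endothelial-like, macrophage-like, Kupffer-like and other macrophage-like cells and for the differences between classes, not for the hepatocyte-marker clusters. Of the values, 309 were labelled the same, 37 stronger, 73 weaker and 13 reversed. Log2 fold changes and their differences were labelled by direction and by whether they gained or lost the threshold. Counts of genes were labelled by their size against the main count, and shares by direction alone. Genes called in endothelial-like cells (73) became 463 with the replicate block, 479 with a block for the barcode sets, 320 with DESeq2, 368 in replicates 1 and 2, 47 at Leiden resolution 2 and 29 without a filter on low genes, and 0 to 22 without 1 library. In macrophage-like cells (455) they became 1069, 1111 and 913 with the first 3 of these, 66 without the filter, 184 outside the Kupffer-like sub-clusters and 18 in cells of 250 to 5000 UMIs, and 0 to 12 without 1 library. In Kupffer-like cells (974) they became 1559 and 1609 with the blocks, 36 in cells of 250 to 5000 UMIs and 0 without sub-cluster 7, and 1 to 1343 without 1 library. Genes whose effect differed between macrophage-like and endothelial-like cells (751) numbered 268 to 680 without 1 replicate number, between Kupffer-like and other macrophage-like cells (1081) 625 to 701, and between Vwf-led and endothelial-like cells (211) 65 to 219. In other macrophage-like cells (184 genes) 0 to 8 were called without 1 library, and 0 in the shared monocyte-derived-like sub-clusters, 54 without the filter, 620 with DESeq2, 850 with the replicate block and 840 with the barcode-set block.

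Fabp4 in endothelial-like cells was at -2.91 without the filter and -3.16 to -2.67 without 1 library. Fabp5 there was at -2.08 with the replicate block, -2.09 with the barcode-set block and in replicates 1 and 2, -2.11 with DESeq2, and -2.34 to -1.83 without 1 library. In cells of 250 to 5000 UMIs Fabp5 was at -3.53 in macrophage-like cells (-3.49 to -2.82 without 1 library) and -3.26 in Kupffer-like cells (-5.39 without sub-cluster 7, and -5.5 to -3.78 without 1 library). The Fabp4 difference between macrophage-like and endothelial-like cells was 2.09 to 2.54 without 1 replicate number.

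The direction changed for Fabp7 in macrophage-like cells of 250 to 5000 UMIs (0.30), for Fabp4 in other macrophage-like cells within the shared monocyte-derived-like sub-clusters (1.09), for Fabp1 in Kupffer-like cells without sub-cluster 7 (0.27), in replicates 1 and 2 (0.14) and without vehicle replicate 2 (-2.20 to 0.13 without 1 library), and for Fabp4 there without ginkgetin replicate 3 (-1.39 to 0.035). It changed for the Fabp1 differences without replicate number 2 (macrophage-like minus endothelial-like, -0.13 to 1.0 without 1 number, Kupffer-like minus other, -0.0011 to 0.52, and Vwf-led minus endothelial-like, -1.36 to 1.16) and for Fabp4, Kupffer-like minus other, without number 1 (0.16) or 3 (0.27), against -0.84 without number 2. Without thinning, the Kupffer-like shares with a UMI differed by -27.6 points for Fabp1 and -17.5 for Fabp4, where Kupffer-like cells of the vehicle libraries were deeper. The causes of these changes of direction were not tested. Without replicate number 3, 2 Fabp1 differences passed in edgeR's interaction test that did not pass with all libraries. They were macrophage-like minus endothelial-like (1.0, adjusted p 0.0231) and Vwf-led minus endothelial-like (1.16, adjusted p 0.0207). The count of genes called in hepatocyte-like cells was not run, because 1 ginkgetin library had such cells. Settings for other macrophage-like cells, the Vwf-led and the hepatocyte-marker clusters were chosen after seeing the data.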
